A study of Mus musculus with 2 samples.

Results

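The nuclear receptors described here are 38 genes of the mouse, chosen as the rows of the gene tables whose identifiers map to a list of receptor symbols. They are 38 of 43346 Ensembl genes in those tables, and the list leaves out 11 other receptors, such as Hnf4a, Vdr and Nr1d1, which are given near the end for comparison. The material is small intestine of C57BL/6J mice, a common inbred strain, taken at 8 weeks of age, with male and female littermates pooled. Polyadenylated RNA above 200 nt was read in 2 libraries. By their labels these are biological replicates 1 and 2, made from separate biosamples filed under the same strain entry. The labels give no treatment, no genotype other than the strain and no segment of the intestine, and the health state is entered as unknown. There is thus 1 group, no comparison between conditions and no test, and the values below are those of each replicate or their mean ± SD (n = 2).

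Nuclear receptors are transcription factors that bind DNA through paired zinc fingers and, in most of the family, bind a small lipophilic molecule through a separate domain. Steroid and thyroid hormones, retinoids, fatty acids, oxysterols, bile acids and foreign compounds are among these ligands, while orphan receptors act without a known physiological ligand. Many of the lipid sensors bind DNA as heterodimers with a retinoid X receptor. In the small intestine the family is known for its part in lipid and sterol absorption, in the metabolism of foreign compounds and bile acids, and in the renewal and immune defence of the epithelium.

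The libraries were of like depth, with 45472946 expected counts in replicate 1 and 45822403 in replicate 2, but their mix of tissue RNA differed. An expected count is an estimated number of fragments. TPM scales each gene's fragments by its length and by the library to a fixed total, so that levels can be set side by side between genes. All 10 enterocyte markers reached 1 TPM in both replicates, and they summed to 6912 and 11662 TPM in replicates 1 and 2. The sum leaned most on Alpi in replicate 1 (3759 TPM, against 1663 TPM in replicate 2) and on Apoa4 in replicate 2 (1916 and 4255 TPM in replicates 1 and 2). Relative to the median gene, 7 of the 10 were past 2-fold higher in replicate 2 and 1, Alpi, past 2-fold lower, with a median log2 ratio of 1.58. The 16 exocrine pancreas markers, led by Ctrb1, Cela2a and Clps, summed to 272395 TPM in replicate 1 against 1792 TPM in replicate 2, and none was at 0. The 10 stomach markers, led by Tff2, Tff1 and Gkn3, summed to 19753 and 51.5 TPM, also with none at 0, and the 4 islet markers to 101 and 2.01 TPM, with Ppy, the gene of pancreatic polypeptide, at 0 in replicate 2. Replicate 1 held far more RNA of pancreatic and gastric genes, and since TPM has a fixed total, other genes take a smaller share of it there. In bulk tissue, fewer cells of a type and less RNA per cell cannot be told apart.

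The receptors recognise DNA through the P-box, a short stretch at the base of the first zinc finger, and this sequence sorts the members into 8 groups. The coding bases below run from the first cysteine codon of that finger to the end of the P-box, 23 codons in all, with the 6 codons of the P-box in capitals. They were read 5′ to 3′ on the coding strand from the GRCm38 genome. Shown are the 4 most abundant members, Thra and Rxra because many partners share their P-box, and Nr5a2 for a further group with a member detected.
Nr1h2: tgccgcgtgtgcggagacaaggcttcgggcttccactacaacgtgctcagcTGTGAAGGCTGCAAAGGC
Ppard: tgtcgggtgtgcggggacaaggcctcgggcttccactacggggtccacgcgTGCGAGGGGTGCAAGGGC
Thra: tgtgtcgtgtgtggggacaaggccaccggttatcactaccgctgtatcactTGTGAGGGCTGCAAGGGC
Rxra: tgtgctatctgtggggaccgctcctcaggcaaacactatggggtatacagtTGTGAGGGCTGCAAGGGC
Nr2f6: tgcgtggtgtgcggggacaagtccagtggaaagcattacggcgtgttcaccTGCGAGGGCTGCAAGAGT
Esrra: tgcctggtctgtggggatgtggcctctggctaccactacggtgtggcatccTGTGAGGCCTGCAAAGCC
Nr5a2: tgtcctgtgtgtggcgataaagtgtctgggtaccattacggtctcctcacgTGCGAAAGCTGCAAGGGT
The stretches lie at chr7:44552100-44552168, chr8:71381035-71381103 and chr19:6920085-6920153 on the minus strand, each within 1 exon. Those of Ppard (chr17:28295430-28297088), Thra (chr11:98756958-98760878) and Rxra (chr2:27741176-27741804) on the plus strand and of Nr5a2 (chr1:136943426-136945024) on the minus strand span an intron, which is left out.

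The finger was found in all 38 members. Read as amino acids, the P-boxes of Nr1h2, Ppard, Thra and Rxra are the same, and 23 members carry this form, among them all retinoid, thyroid, PPAR, LXR and NR4A receptors of the list. Of these 23, 19 were detected at 1 TPM or more in both replicates, and the 23 together held 430 TPM in replicate 1 against 915 TPM in replicate 2. The 3 COUP-TF genes, which share the P-box shown for Nr2f6, summed to 196 and 383 TPM. The 3 estrogen-related receptors, with that of Esrra, summed to 159 and 345 TPM. The glucocorticoid, mineralocorticoid and progesterone receptors, which share a P-box of their own, summed to only 8.40 and 20.9 TPM, and the pair of estrogen receptors to 0.96 and 0.80 TPM. The P-box forms of the steroid receptors proper were thus carried by few transcripts in both replicates. Between paralogs of a family the whole finger stretch was close: 10 of 28 pairs had the same 23 residues, and no pair differed at more than 6.

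Of the 38 members, 26 were detected, that is, held at least 1 TPM in both replicates. The same threshold was met by 25.8% of all Ensembl genes in the tables and by 49.3% of the 21474 protein-coding genes among them. Together the members held 799.8 TPM in replicate 1, against 1675 TPM in replicate 2 (1237 ± 619 TPM, SD, n = 2). By mean level, 4 members were at 100 TPM or above, 7 lay between 10 and 100 TPM, 18 between 1 and 10 TPM, and 9 under 1 TPM. The 4 highest, Nr2f6, Esrra, Nr1h2 and Ppard, held 69.04% of the summed level in replicate 1 and 65.1% in replicate 2, and they took the first 4 places in the same order in both.

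**Figure D1:**
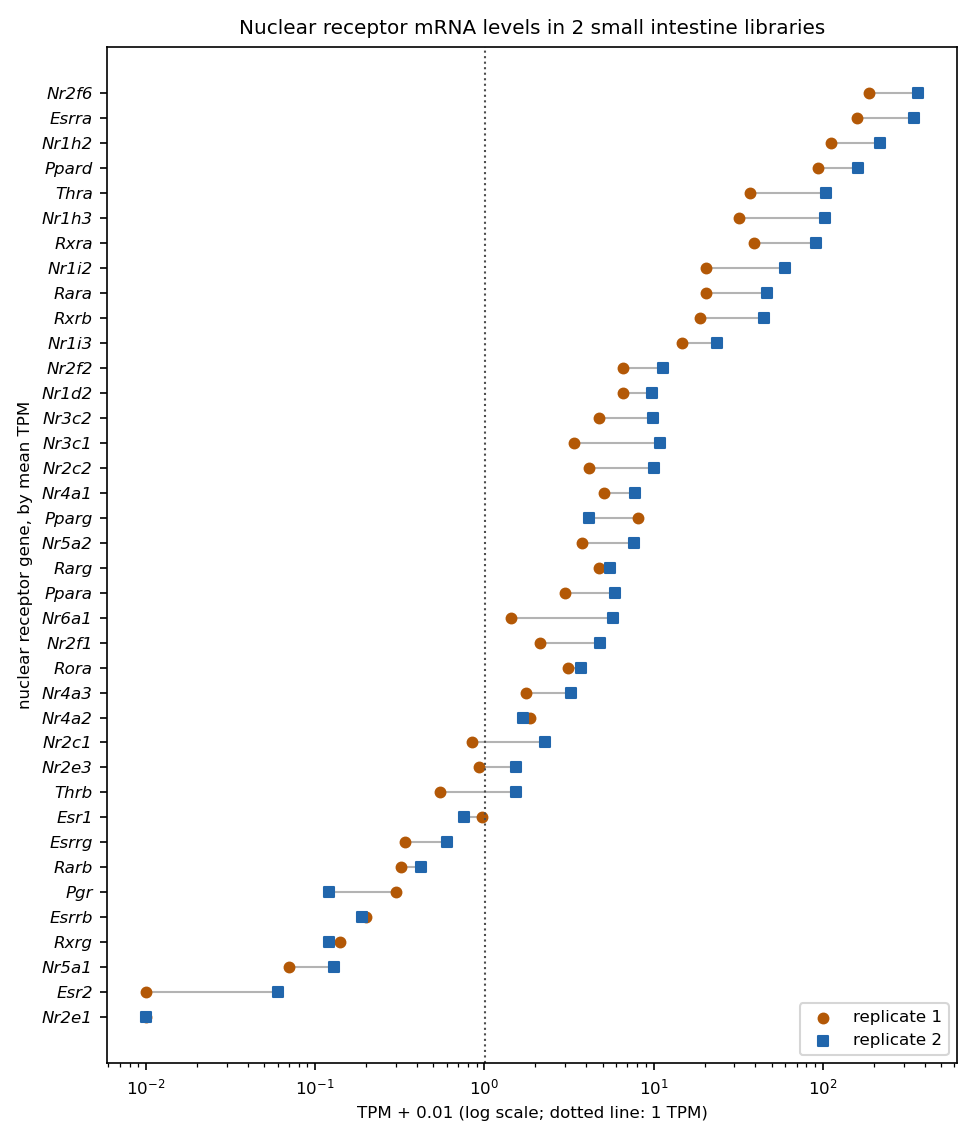
TPM plus 0.01 of each of the 38 receptor genes on a log scale, ordered by mean TPM, with a circle for replicate 1, a square for replicate 2 and a dotted line at 1 TPM. Nr2f6 is at the top with 187 and 367 TPM, most squares lie to the right of their circles, and Nr2e1 at the bottom is at 0 in both replicates.

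The order of the receptors by level was much the same in both replicates, although the ranges of most neighbours in it overlapped. Across the 38 members, log2(TPM + 1) in the replicates correlated with a Pearson r of 0.98 and the ranks with a Spearman rho of 0.963. These describe the list only, since the genes share a library and its depth. Of the 37 pairs of neighbours in the order of mean level, 32 had overlapping ranges, and 17 stood in the same order in both replicates. Each of the 4 highest members overlapped in range with the next below it, but these ranges include the general rise in TPM from replicate 1 to replicate 2 described below. Within each replicate the 4 stood in the same order, with deposited credibility intervals apart. Those of Nr2f6 were 183 to 197 and 359 to 372 TPM, and those of Esrra 153 to 163 and 334 to 351 TPM. Such intervals describe each library alone.

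Orphan receptors, Nr2f6 and Esrra, headed the list. Nr2f6 (ENSMUSG00000002393.10; GRCm38 chromosome 8, 71374123 to 71381960), a COUP-TF relative that represses transcription and is known in lymphocytes as a brake on cytokine genes, was listed at 187 and 367 TPM in replicates 1 and 2. Its paralogs Nr2f2 (6.61 and 11.3 TPM) and Nr2f1 (2.12 and 4.83 TPM), which act in the development of vessels, gut mesenchyme and neurons, were far lower. Nr2f6 made up 95.5% of the TPM of this family in replicate 1 and 95.8% in replicate 2. Esrra (ENSMUSG00000024955.9; chromosome 19, 6910977 to 6921813), a constitutively active receptor that drives genes of mitochondrial respiration together with the PGC-1 coactivators, held 159 and 345 TPM. Its paralogs Esrrg and Esrrb stayed under 1 TPM in both replicates, at 0.33 and 0.59 TPM and at 0.19 and 0.18 TPM. Esrra gave 99.7% and 99.8% of the TPM of its family.

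The oxysterol and lipid sensors came next, and each family leaned on 1 member. Nr1h2 (ENSMUSG00000060601.8; chromosome 7, 44549616 to 44553951), which encodes LXRβ, was listed at 112 and 218 TPM. Nr1h3 (ENSMUSG00000002108.6; chromosome 2, 91184061 to 91202834), which encodes LXRα, was listed at 31.8 and 104 TPM. The LXR proteins bind oxysterols and switch on cholesterol efflux and fatty acid synthesis. Nr1h2 gave 77.9% and 67.8% of LXR transcripts in replicates 1 and 2 (72.9 ± 7.18%, SD, n = 2). Among the fatty acid receptors, Ppard (ENSMUSG00000002250.11; chromosome 17, 28232700 to 28301474) was listed at 93.9 and 161 TPM, and both of its paralogs were under 10 TPM. Ppara, the main regulator of fatty acid oxidation in liver, held 2.99 and 5.92 TPM. Pparg, the master regulator of fat cell differentiation, held 8.04 and 4.14 TPM and was the only PPAR gene with the lower value in replicate 2. Ppard made up 89.5% and 94.1% of PPAR transcripts.

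The xenobiotic sensors were both detected. Nr1i2, which encodes PXR, a receptor for drugs and bile acids that induces detoxifying enzymes, was listed at 20.4 and 59.5 TPM in replicates 1 and 2. Nr1i3, which encodes CAR, its relative with a similar set of target genes, was listed at 14.8 and 23.7 TPM. The ranges of the 2 genes overlapped, and the PXR gene was the higher in each replicate, with 58.0% and 71.5% of the pair's TPM.

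Among the retinoid receptors the alpha forms led. Rxra, the shared heterodimer partner of the lipid sensors, held 39.3 and 91.0 TPM, and Rxrb held 18.7 and 45.2 TPM. Rxrg, known from muscle and brain, held 0.13 and 0.11 TPM. The split within the RXR family hardly moved, with 67.5% and 66.8% of TPM from Rxra. Of the retinoic acid receptors, Rara held 20.4 and 46.5 TPM and Rarg, typical of skin and other stratified epithelia, 4.76 and 5.49 TPM. Rarb, itself a retinoic acid target, held 0.31 and 0.41 TPM. Rara thus gave 80.1% and 88.7% of RAR transcripts.

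Thra (ENSMUSG00000058756.9; chromosome 11, 98740638 to 98769006), the thyroid hormone receptor gene with a known part in crypt cell proliferation, was listed at 37.3 and 105 TPM in replicates 1 and 2. Thrb, the form that predominates in liver and pituitary, was listed at 0.54 and 1.53 TPM. Thra gave 98.6% of the pair in each replicate. The 3′ end of Thra overlaps that of Nr1d1, the gene of the clock repressor REV-ERBα on the opposite strand, over 1075 nt, and Nr1d1 itself was listed at 47.9 and 168 TPM. The labels say that the libraries keep strand, but whether the counting used it is not given in the sources used here, so reads from the overlap may be shared between both genes.

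**Figure D2:**
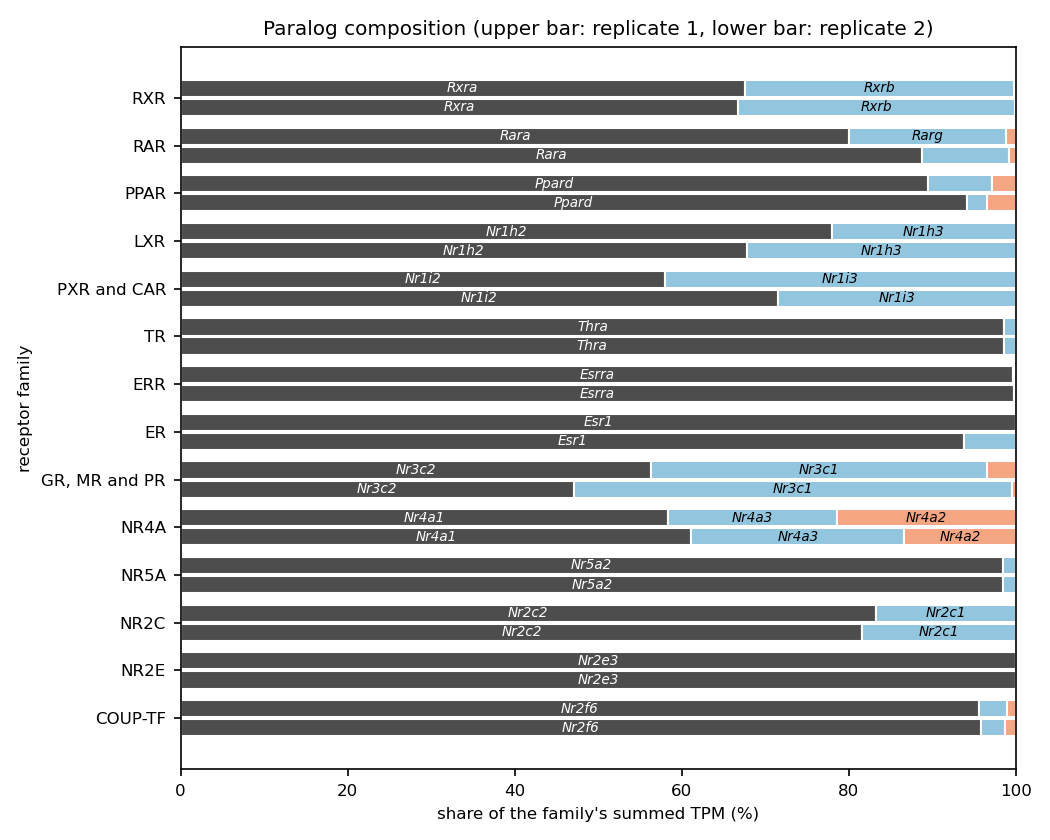
Share of each family's summed TPM held by each paralog, in percent, with the upper bar of a pair for replicate 1 and the lower for replicate 2; dark, blue and orange mark paralogs in the order of their mean share, and names are printed where the share exceeds 12%. Esrra, Thra, Nr5a2 and Nr2f6 fill nearly the whole bar. In the family of the glucocorticoid, mineralocorticoid and progesterone receptors the largest share changes gene. The credibility intervals of Nr3c2 and Nr3c1 overlap in both replicates, so which of them leads is uncertain.

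The steroid receptors were low. Nr3c2, the mineralocorticoid receptor that controls sodium uptake in epithelia, held 4.73 and 9.86 TPM. Nr3c1, the glucocorticoid receptor, held 3.38 and 11.0 TPM. Which of them led depended on the replicate: Nr3c2 had 56.3% of the family in replicate 1 and 47.1% in replicate 2, and Nr3c1 40.2% and 52.4%. Of 14 families, this was the one whose leading gene differed between replicates. Pgr, the progesterone receptor, held 0.29 and 0.11 TPM, and Esr1, estrogen receptor alpha, 0.96 and 0.75 TPM. Esr2, estrogen receptor beta, had 0 counts in replicate 1, which allows up to 0.0199 TPM if a count of 0 is taken as at most 3 counts, and 5 counts (0.05 TPM) in replicate 2. Such limits cover counting error only, and the deposited interval for replicate 1 reaches 0.0524 TPM.

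The remaining members were at most in the single digits or just above. Nr1d2, a heme-binding repressor of the circadian clock, was listed at 6.62 and 9.80 TPM, and Rora, which activates the same response elements, at 3.12 and 3.70 TPM. The NR4A genes are immediate early orphan receptors induced by many stimuli. Nr4a1 held 5.06 and 7.74 TPM, Nr4a3 1.75 and 3.23 TPM, and Nr4a2 1.86 and 1.69 TPM, so that Nr4a1 led with 58.4% and 61.1% of the family.

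Nr5a2, which encodes LRH-1, a regulator of crypt renewal, of local glucocorticoid synthesis and of exocrine pancreas genes, was listed at 3.77 and 7.65 TPM in replicates 1 and 2. Relative to the median gene this was a log2 ratio of 0.19, and the part of pancreatic RNA in it was not tested. Nr5a1, the steroidogenic factor of adrenal and gonad, held 0.06 and 0.12 TPM. Nr6a1, an orphan receptor of germ cells and embryos, held 1.42 and 5.75 TPM. Its credibility intervals, 1.38 to 8.79 TPM and 5.40 to 9.97 TPM, overlapped, and its deposited posterior means were 4.07 and 7.32 TPM, so its level in replicate 1 is uncertain. Nr2c2 and Nr2c1, the testicular receptors, held 4.16 and 10.02 TPM and 0.84 and 2.26 TPM. Nr2e3, a photoreceptor gene, held 0.92 and 1.52 TPM. Nr2e1, which maintains neural stem cells, had 0 counts in both replicates, which allows up to 0.0556 and 0.0706 TPM by counting error alone. The deposited credibility intervals for it reach higher, to 0.378 and 0.465 TPM.

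Gene totals do not show which protein a locus encodes, and for several receptors the transcripts mattered. The tables list 214 transcripts of the members, and each was matched to the GENCODE M21 annotation. For Thra the leading transcript in both replicates was Thra-201, of 492 codons, with 77.9% and 80.7% of the gene's TPM (29.0 and 84.6 TPM). It is the form known as TRα2, whose altered end does not bind thyroid hormone. Thra-202, of 410 codons, the hormone-binding form TRα1, held 16.9% and 16.0% (6.32 and 16.8 TPM). The credibility intervals deposited for the pair did not overlap in either replicate, with 27.7 to 29.8 TPM against 5.65 to 6.90 TPM in replicate 1. The forms share 370 codons and then part, as the last 30 shared coding bases (lower case) and the first 60 bases of each own end (capitals) show, read 5′ to 3′ on the plus strand of chromosome 11 in GRCm38.
Thra-201: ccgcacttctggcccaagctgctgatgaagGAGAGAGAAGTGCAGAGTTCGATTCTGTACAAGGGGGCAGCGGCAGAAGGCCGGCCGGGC
Thra-202: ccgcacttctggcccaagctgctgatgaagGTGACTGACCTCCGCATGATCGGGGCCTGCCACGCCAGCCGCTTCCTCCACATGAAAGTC
The shared bases are chr11:98764376-98764405. The own end of Thra-202 starts in the same exon, at chr11:98764406-98764465, and that of Thra-201 in the last exon, at chr11:98768157-98768216. Of the 850 nt of that last exon, 263 lie within exons of the antisense gene Nr1d1, so the TPM of Thra-201 may include reads of Nr1d1; this was not tested.

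The leading transcript was a different one in each replicate for 7 of the 27 members with several transcripts and a mean of at least 1 TPM, Nr1i3, Rxra, Ppara, Nr5a2, Nr2f2, Nr2e3 and Rara, against 15.2% of all such genes. For each of the 7, the credibility intervals of the leading transcript and a rival overlapped in at least 1 replicate, as for Rxra-206 (16.7 to 19.9 TPM) and Rxra-201 (17.03 to 18.60 TPM) in replicate 1, so which transcript led there is uncertain. For Rxra, Rxra-206 led in replicate 1 with 47.8% and held 11.9% in replicate 2, while Rxra-202 held 5.79% and 38.7%. Rxra-206 and the other leading form, Rxra-201 (45.7% and 49.4%), both have 467 codons, and Rxra-202 has 439. For Rara, the leading transcripts Rara-202 and Rara-204 have 459 and 462 codons. Rara-202 held 44.6% and 45.7%, and Rara-204 held 31.5% and 49.6%. Of the other forms of 462 codons, Rara-207 held 23.2% and 0.61%, and Rara-201 held 0.37% and 3.67%. The change of leading transcript in Rara is thus not to be read as a change of coding length. For Nr2f2 the long form Nr2f2-201 of 414 codons held 47.9% and 58.3%, and the short form Nr2f2-202 of 281 codons 52.1% and 41.7%. For Nr5a2, Nr5a2-205 and Nr5a2-202 both have 499 codons, and they held 33.3% and 35.4% in replicate 1 and 50.2% and 38.3% in replicate 2.

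Pparg was carried mainly by 1 form. Pparg-201, of 505 codons, the PPARγ2 form that is typical of fat, held 91.8% of the gene's TPM in replicate 1 and 100% in replicate 2. The shorter Pparg-202, of 475 codons, held 8.16% and 0%. Its credibility interval in replicate 2 reaches 0.639 TPM, and by posterior mean TPM its share was 9.28% and 5.69%. The models differ at their 5′ ends alone, so this split rests on the few reads that fall there.

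For some receptors most of the TPM came from transcripts that are not annotated as coding. In 5 of the 29 members with a mean of at least 1 TPM, coding transcripts gave under 50% of the TPM in both replicates, a share of members to be read against 11.5% of protein-coding genes at the same level. For Nr1d2 the coding share was 12.99% in replicate 1 and 26.6% in replicate 2, and a retained-intron transcript, Nr1d2-202, held the rest. For Rora it was 24.7% and 16.7%, with most TPM from Rora-206, a partial model of a transcript marked for nonsense-mediated decay. For Nr1i3 it was 47.7% and 32.5%, so that coding transcripts of the CAR gene summed to 7.06 and 7.70 TPM. Nr4a3 (13.1% and 14.2%) and Nr2e3 (40.9% and 14.5%) made up the 5. At the other end, 15 of the 29 had at least 90% of their TPM in coding transcripts in both replicates.

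**Figure D3:**
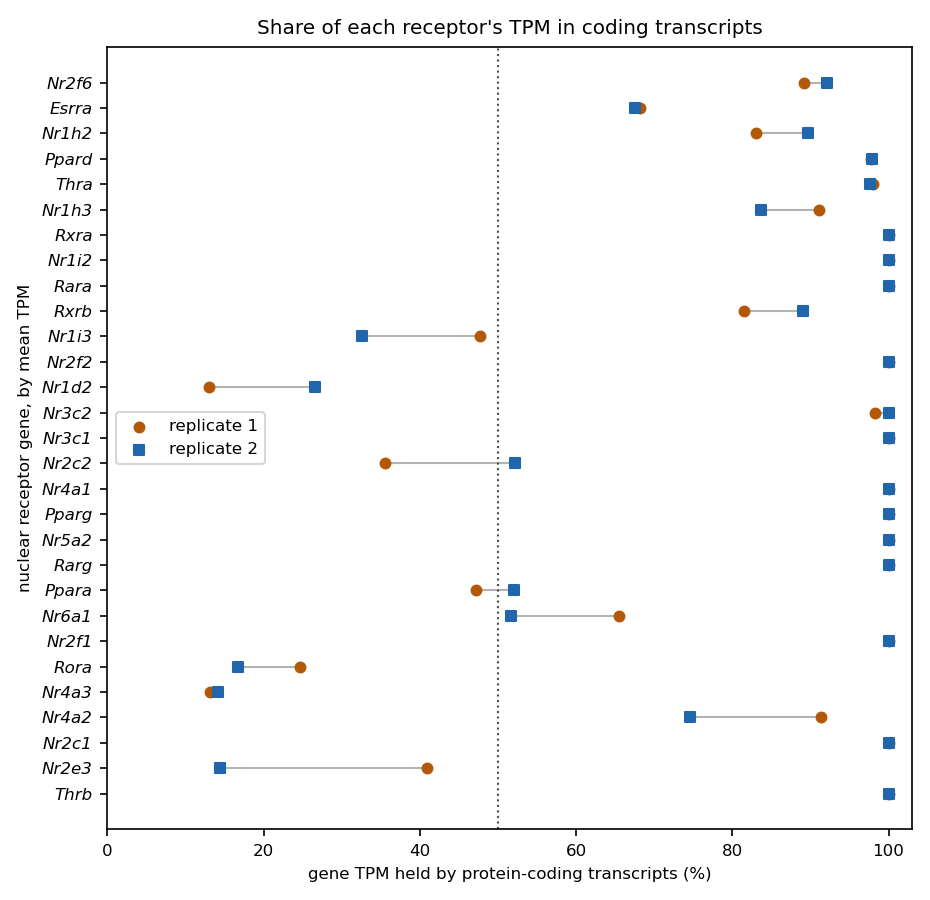
Percent of each receptor gene's TPM held by protein-coding transcripts, for the 29 members with a mean of at least 1 TPM, with a circle for replicate 1, a square for replicate 2 and a dotted line at 50%; a square at 100% can cover its circle. Nr1d2, Rora, Nr1i3, Nr4a3 and Nr2e3 lie under the line in both replicates, and Esrra lies at 68.2% and 67.5%.

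Among the abundant members, Esrra stood lowest in this respect, with 68.2% and 67.5% of TPM from coding transcripts, and its retained-intron transcript Esrra-202 held 19.6% and 22.8%. Short transcripts weigh more in TPM than in counts. By expected counts the coding share was 91.1% and 90.5% for Esrra and 72.7% and 66.4% for Rora. Ppara moved as well, from 47.2% and 52.1% by TPM to 94.9% and 95.1% by counts. Of the 5 members under 50% in both replicates by TPM, Nr4a3 alone remained so by counts (46.3% and 48.9%). Nr1d2 was at 31.5% and 52.5%, Nr1i3 at 50.5% and 41.5% and Nr2e3 at 56.3% and 31.0%. When only coding transcripts were summed, 22 members were at 1 TPM or more in both replicates, and Nr1d2, Nr4a3, Rora and Nr6a1 were the detected members that no longer reached it.

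Between the replicates, 27 of the 29 members with a mean of at least 1 TPM had the higher TPM in replicate 2, and Pparg and Nr4a2 had the lower. The deposited credibility intervals were not compared over all genes, so the counts given next have no background to be read against. Among the 29, these intervals were apart in 23 with replicate 2 above and in 1, Pparg, with replicate 1 above. This direction was not particular to receptors: over the 12260 genes at that level the median log2 ratio of (TPM + 1), replicate 2 over replicate 1, was 0.66. Ratios below are therefore given relative to that median gene. On this scale 20 members lay above 0 and 9 below, with a median of 0.19 against 0 for all genes, and 27 of the 29 were within 2-fold of the median gene.

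**Figure D4:**
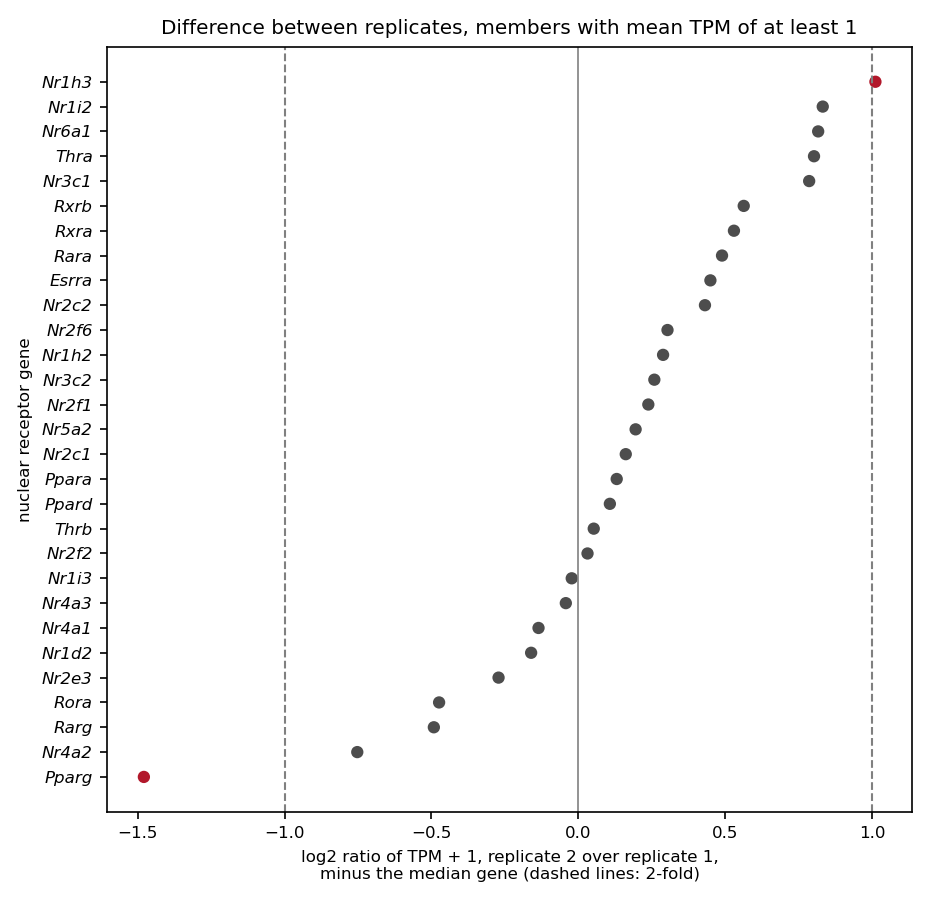
Log2 ratio of TPM plus 1, replicate 2 over replicate 1, minus the median gene, for the 29 members with a mean of at least 1 TPM, with dashed lines at 2-fold and the members beyond them in red. Nr1h3 at 1.01 and Pparg at -1.48 lie beyond the lines, Nr1h3 by a narrow margin.

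Nr1h3 was the 1 member past 2-fold higher in replicate 2, where 5.03% of all genes at that level were. Its 31.8 TPM in replicate 1 (credibility interval 30.3 to 33.2) and 103.7 TPM in replicate 2 (99.7 to 106) gave a centred log2 ratio of 1.01. The call sits at the threshold, and the next members, Nr1i2 at 0.83, Nr6a1 at 0.82, Thra at 0.80 and Nr3c1 at 0.79, lay just inside it. With counts scaled by TMM in place of TPM, Nr1h3 was at 0.82 and no member was past 2-fold higher. The enterocyte markers moved in the same direction, with a median of 1.58 and 7 of 10 past 2-fold higher, among them Anpep (512 and 2687 TPM), and none of the 10 was at 0. Their part in the Nr1h3 value was not tested.

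Pparg was the 1 member past 2-fold lower in replicate 2, where 6.32% of all genes were. It had 630 counts in replicate 1 and 253 in replicate 2, with intervals of 7.37 to 8.61 TPM and 3.62 to 4.63 TPM and a centred log2 ratio of -1.48. The 16 exocrine pancreas markers, and the 8 of 10 stomach markers with a mean of at least 1 TPM, were all past 2-fold lower in replicate 2. The 5 adipocyte markers summed to 6.62 and 4.33 TPM with none at 0, and Plin1 (3.20 and 0.93 TPM) and Adipoq (2.01 and 0.83 TPM) were past 2-fold lower. Fabp4 (1.13 and 2.25 TPM) had the higher value in replicate 2 and lay at -0.05 relative to the median gene. Further marker lists also had medians below the median gene. These were islet (-4.22), smooth muscle (-0.88), enteric neuron and glia (-0.67), fibroblast (-0.58), macrophage (-0.37) and T cell (-0.37). The enterocyte (1.58), liver (1.21), B and plasma cell (0.50) and endothelium (0.25) lists lay above it. The part of any of these tissues and cells in the Pparg value was not tested. Without centring Pparg was still lower in replicate 2, at -0.81, which is within 2-fold.

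The 11 receptors outside the list included some as abundant as its top members. Hnf4a, the factor that maintains enterocyte identity, was listed at 143 and 325 TPM, between Esrra and Nr1h2 in both replicates. Vdr, the vitamin D receptor, held 80.4 and 124 TPM, Hnf4g 12.4 and 45.0 TPM, and Nr1h4, the bile acid receptor FXR, 6.56 and 8.35 TPM. Nr0b2, the corepressor SHP, went the other way, with 18.5 and 1.47 TPM in replicates 1 and 2. Nr1d1 and Hnf4g were past 2-fold higher and Nr0b2 past 2-fold lower relative to the median gene. Nr0b1, Rorb and Nr1h5 were at 0.05 TPM or below in both.

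The pathway lists around the receptors, 10 lists with 110 genes, cover their partners, ligand supply and targets. In what follows, past 2-fold is always relative to the median gene, replicate 2 over replicate 1. The enterocyte markers, with their median of 1.58, moved with the genes called higher below, and the pancreas and stomach markers with those called lower. Other marker lists also lay below the median gene, such as smooth muscle (-0.88), or above it, such as B and plasma cells (0.50). The part of any of these markers' tissues in the values below was not tested. All 17 coregulators were detected, led by the corepressor genes Ncor1 (39.2 and 106 TPM) and Gps2 (46.0 and 85.0 TPM). The coactivators Ncoa6 (11.6 and 46.1 TPM) and Ppargc1a (3.25 and 13.6 TPM), which encodes the PGC-1α partner of Esrra, were past 2-fold higher in replicate 2. Their list had a median centred ratio of 0.32.

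Of 7 LXR targets, 6 were detected and 2 were past 2-fold higher, none lower, with a median centred ratio of 0.70. Those 2 were Abcg5 (58.9 and 273 TPM) and Abcg8 (50.3 and 238 TPM), which together form the sterol pump of the brush border. Lpcat3, which remodels phospholipids, held 102 and 264 TPM, and Srebf1, the regulator of fatty acid synthesis, 74.3 and 126 TPM. Of 12 PPAR targets, 11 were detected, 2 were past 2-fold higher and 2 lower, and the median was -0.33. Vnn1, a pantetheinase (3.02 and 46.5 TPM), and Angptl4, an inhibitor of lipoprotein lipase (11.5 and 46.1 TPM), were the higher ones. The lower ones were Pdk4, a kinase that holds back glucose oxidation (5.84 and 3.64 TPM), and Cyp4a10, a fatty acid hydroxylase listed at 2.08 TPM in replicate 1 and at 0 in replicate 2. The expected count of Cyp4a10 in replicate 1, 198.64, is not a whole number, so its reads may be shared with another gene and its level is uncertain. Targets of the same receptors thus lay on both sides of the median gene.

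All 12 PXR and CAR targets were detected, with a median of -0.05. Ugt1a1, which conjugates bilirubin, was past 2-fold higher (17.7 and 71.5 TPM). Gstm1 (297 and 107 TPM) and Gsta1 (128 and 12.6 TPM), glutathione transferases, were past 2-fold lower. The gene family of Gsta1 has near-identical copies, so its count is uncertain. The expected counts of Ugt1a1 and Gstm1 were not whole numbers either, so their reads may also be shared with other genes. Por, the electron donor of cytochrome P450 enzymes, held 97.7 and 160 TPM, and Ces2a, a carboxylesterase, 61.8 and 96.8 TPM.

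**Figure D5:**
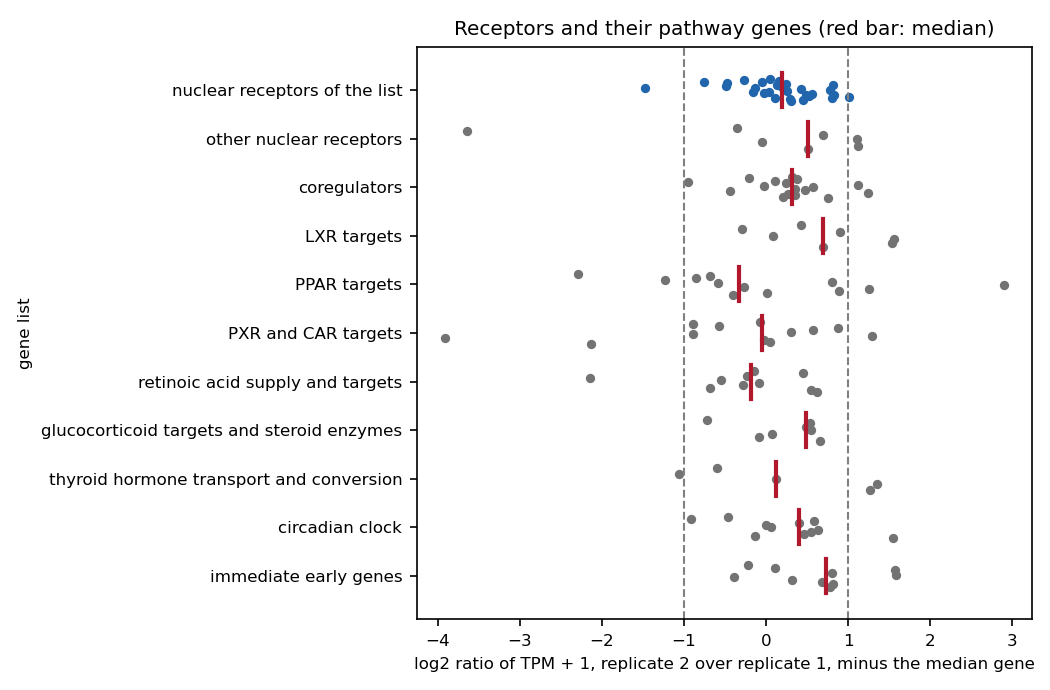
Log2 ratio of TPM plus 1, replicate 2 over replicate 1, minus the median gene, for the 29 receptors (top row) and for the genes of 10 pathway lists with a mean of at least 1 TPM; each point is a gene, red bars are medians and dashed lines mark 2-fold. The receptors have a median of 0.19, and the medians of the lists run from -0.33 for PPAR targets to 0.74 for immediate early genes.

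For the retinoid receptors, 7 of 13 genes of retinoic acid supply and response were detected, with a median of -0.19. Isx, the retinoic acid-induced repressor of vitamin A uptake, led with 47.8 and 118 TPM, followed by the retinaldehyde reductase gene Dhrs3 with 24.6 and 58.3 TPM. Aldh1a1, which makes retinoic acid, held 9.47 and 9.30 TPM. Crabp2, Cyp26a1 and Cyp26c1 were under 0.1 TPM in both.

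Of 7 genes of thyroid hormone transport and conversion, 5 were detected. Dio1, the deiodinase that activates the prohormone, held 15.0 and 59.8 TPM, and Slc16a10, a transporter of aromatic amino acids and thyroid hormone, 10.3 and 45.0 TPM, both past 2-fold higher. Dio2 and Dio3 were under 0.15 TPM in both replicates. Thrsp, a lipogenic target, was past 2-fold lower (3.42 and 2.37 TPM). For the steroid receptors, 7 of 10 target and enzyme genes were detected, none past 2-fold, with a median of 0.48. Sgk1, a kinase induced by both corticoid receptors, held 24.7 and 37.5 TPM. Tsc22d3, a glucocorticoid target, held 18.5 and 47.7 TPM. Zbtb16, Cyp11a1 and Cyp11b1 were under 1 TPM in both.

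Beside the clock-linked receptors, 11 of 12 clock genes were detected, with a median of 0.41. Npas2, a partner of BMAL1, was past 2-fold higher (12.95 and 63.6 TPM), and the output gene Dbp held 7.41 and 11.1 TPM. Beside the NR4A genes, 9 of 10 immediate early genes were detected, and Atf3 (6.30 and 33.6 TPM) and Fosb (0.61 and 6.59 TPM) were past 2-fold higher. Junb, at 96.1 and 264 TPM, and Fos, at 82.8 and 232 TPM, led this list, whose median was 0.74, while Nr4a1 itself lay at -0.14 and Nr4a2 at -0.75. Over all 10 lists, 97 of the 110 genes had a mean of at least 1 TPM, 14 of them past 2-fold higher and 7 lower, beside the 5.03% and 6.32% of all genes given above.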

How the data were processed

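Poly(A)-selected RNA of 2 small intestine libraries was analysed as 1 group of n = 2, from gene and transcript tables made by the authors for each library. The deposited text names mm10 and GENCODE M4. Which aligner and quantifier were run is not given in the sources used here. Each deposited table holds expected counts (estimated fragments), TPM and posterior mean TPM, and the authors' FPKM values. The deposited signal bounds are those of a TPM credibility interval whose level is not stated. In the transcript tables the authors also list what percent of a gene's TPM each transcript holds.

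Symbols, biotypes and codon numbers came from GENCODE M21 on GRCm38, the assembly called mm10. The members and lists were chosen with earlier results of these data known. A gene was detected at 1 TPM or more in both replicates. Ratios were log2((TPM + 1)/(TPM + 1)), replicate 2 over replicate 1, minus the median of genes with a mean of at least 1 TPM, with a threshold of 2-fold; the pseudocount of 1 understates ratios of low genes. Zinc fingers were located in translated coding sequences by cysteine spacing, and 6 codons from the third cysteine were taken as the P-box. Design notes foresaw RefSeq proteins for this step; genome coding sequence was used instead. All members may be named; of other receptors all, of each pathway list the 4 highest, those past 2-fold and those under 1 TPM in both where 5 or fewer, and of each marker list the 3 highest; a few of these items are not reported here. Transcripts were named where the leading one differed between replicates, held under 60% or coding lengths differed. Depth was 45472946 and 45822403 expected counts. Scaling alternatives used expected counts, rounded to whole numbers, in edgeR 4.0.16 (TMM) and DESeq2 1.42.0 under R 4.3.3. Other steps used Python 3.11.15, numpy 2.4.6 and pandas 2.3.3. Of these, only the centring and the 2-fold call were tested on simulated counts. Apart from a set of changed genes, the simulation gave both libraries the same mean levels. It held no shift in tissue mix like that between these replicates, so it cannot say how the centring handles one.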

Additional observations from a re-analysis of the deposited data

How the results depend on the processing

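No paired analysis was possible because there is 1 group. Members detected numbered 14 at a minimum of 5 TPM and 26 to 29 from 1 replicate alone. Their summed level was 799.8 and 1675 TPM in the single replicates and 1059 to 1404 TPM as the mean under the other alternatives. The median centred ratio was 0.39 without a filter, 0.86 without centring, 0.47 with TPM rescaled without the pancreas and stomach lists and no centring, and 0.55 with centring on 44 spike-ins, and it was positive in every alternative run. The number past 2-fold higher was 0 with a pseudocount of 0.5, a minimum of 5 TPM, FPKM, TMM, DESeq2 size factors or coding transcripts alone (added after seeing the data). It was 5 without a filter, 10 without centring, 4 with rescaled TPM and 5 with spike-in centring; with a pseudocount of 0.1 it was 1, but the gene was Nr6a1, not Nr1h3. The number past 2-fold lower was 2 with DESeq2 size factors (Pparg and Nr4a2) and 0 without centring. Pparg was lower in replicate 2 in every alternative run. The thyroid list's median turned to -0.0287 with TMM, and the share of Nr3c2 in its family, 51.7% by TPM, to 47.5% by counts, which put Nr3c1 first. The cause of these shifts was not tested beyond what each setting changes. With 2 libraries the SD is itself imprecise, members under 1 TPM rest on few counts, and splits between transcripts rest on reads that fall where the models differ.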
